A study of Mus musculus with 4 samples.

Results

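The 10 gastric genes described here were taken by symbol from the 32289 features of the deposited matrices, and all 10 were found once. They are the gastrokines Gkn1, Gkn2 and Gkn3, the trefoil factors Tff1 and Tff2, the aspartic proteases Pgc, Ctse and Cym, and the mucins Muc5ac and Muc6. Each was followed in the epithelial-like cells of 4 single-cell libraries made from lung tumours, and then in the states into which those cells divide.

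All 4 libraries came from mice of 1 genotype, with frt-flanked p53 (p53frt), a Flp-activated CreERT2 at Rosa26 (Rosa-FSF-CreERT2) and floxed Hnf4a (Hnf4aflox). Flp recombinase was delivered to the airways by an adenovirus in which the mouse surfactant protein C promoter drives FlpO, which directs recombination towards alveolar type 2 cells. Tamoxifen, which activates CreERT2 and was meant to delete Hnf4a, or its vehicle was injected 10 weeks after intubation, and tumours were taken 2 weeks after the injection. What the vehicle was is labelled in more than 1 way. One portion of each suspension was kept as it was, and the rest was passed over magnetic beads against CD45 and CD31, which hold back leukocytes and endothelium. This gives 4 groups of 1 library each, and sets of 4 values below list the undepleted and then the depleted portion, first for vehicle and then for tamoxifen. Age, sex and the number of animals or tumours behind a suspension are not given in the sources used here.

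Each group rests on a single library, without replicates, so nothing was tested and no p-value is given. Depleted and undepleted libraries of a treatment share a suspension, so agreement between the 2 pairs is not replication, and their difference shows how far portions of a suspension can lie apart. Intervals are 95% intervals (exact Poisson for levels, exact conditional binomial for ratios, Clopper-Pearson for shares) and cover counting error only. The libraries held 6558 to 7867 barcodes and 92644997 to 144994771 UMIs, and 10 to 18 barcodes were shared by a pair of libraries. Epithelial-like cells numbered 1011, 6439, 1075 and 7041 and carried 31691231, 135675100, 34837624 and 133710252 UMIs. Hnf4a, the gene flanked by loxP sites, was read at 57.2, 55.1, 86.8 and 83.1 CPM (the gene's UMIs scaled by the UMI total of the class), higher in both libraries labelled tamoxifen. The 3′ counts do not show whether the floxed exons are present, so they do not check the deletion, and directions below are stated for the libraries as labelled.

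The genes mark cells of the stomach lining. Pit cells at its surface secrete the gastrokines Gkn1 and Gkn2, Tff1 and the gel-forming mucin Muc5ac. Neck cells secrete Tff2 and Muc6, and chief cells secrete pepsinogens such as Pgc, while Cym encodes chymosin, the milk-clotting protease of the newborn stomach. In the lung, the transcription factor Nkx2-1 maintains alveolar identity, and lung adenocarcinomas that lose it are known to take on a gastric programme for which Foxa1, Foxa2 and Hnf4a are required. Pgc is also made by normal alveolar type 2 cells, Muc5ac by airway goblet cells and Ctse by several immune cells, so these members are not particular to the stomach.

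The upstream sequences of 4 genes are shown because they belong to the gene cluster and to the gene that the results turn on. The 3 gastrokine genes lie side by side on chromosome 6 (GENCODE M21, GRCm38): Gkn1 at chr6:87345650-87350942 on the minus strand, Gkn2 at chr6:87373357-87379497 on the plus strand and Gkn3 at chr6:87383256-87388935 on the minus strand. The ends of Gkn2 and Gkn3 are 3759 bases apart. Cym lies on chromosome 3 at chr3:107211293-107221732, minus strand, and its nearest protein-coding neighbour, A630076J17Rik, is 8882 bases away. Each line gives the 250 bases before the transcription start in RefSeq (GRCm38.p6), 5′ to 3′ on the gene's strand, with TATAAA in capitals.
Gkn1 (chr6:87350916-87351165): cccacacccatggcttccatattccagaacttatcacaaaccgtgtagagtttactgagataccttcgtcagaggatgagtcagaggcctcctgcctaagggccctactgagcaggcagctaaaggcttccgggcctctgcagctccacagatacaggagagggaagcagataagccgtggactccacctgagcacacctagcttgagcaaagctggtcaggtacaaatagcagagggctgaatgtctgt
Gkn2 (chr6:87373115-87373364): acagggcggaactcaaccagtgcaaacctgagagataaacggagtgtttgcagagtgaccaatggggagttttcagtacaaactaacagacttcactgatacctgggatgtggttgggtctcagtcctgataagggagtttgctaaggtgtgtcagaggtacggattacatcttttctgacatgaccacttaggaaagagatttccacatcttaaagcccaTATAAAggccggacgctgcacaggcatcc
Gkn3 (chr6:87388936-87389185): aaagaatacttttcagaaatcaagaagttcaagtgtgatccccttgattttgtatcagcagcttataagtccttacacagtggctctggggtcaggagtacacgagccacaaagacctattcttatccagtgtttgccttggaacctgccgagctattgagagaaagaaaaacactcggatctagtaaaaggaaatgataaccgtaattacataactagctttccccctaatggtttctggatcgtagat
Cym (chr3:107221733-107221982): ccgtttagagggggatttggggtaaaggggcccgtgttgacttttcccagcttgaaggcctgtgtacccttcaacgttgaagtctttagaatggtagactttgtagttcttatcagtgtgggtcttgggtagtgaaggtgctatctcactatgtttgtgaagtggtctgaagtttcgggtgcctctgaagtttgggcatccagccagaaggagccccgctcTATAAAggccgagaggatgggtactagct
Of the 10 members, 6 had a promoter in the table used (Gkn1, Gkn2, Gkn3, Pgc, Cym and Muc6). TATAAA, searched on both strands after the sequences had been seen, stood 29 bases before the start in Gkn2 and Cym and 31 bases before it in Pgc, and 12.4% of 32851 promoter windows of the same length held it. None of the 6 windows held the forkhead letters TGTTTAC (3.17% of all windows) or the Hnf4-type letters CAAAGTCCA (0.384%). The Nkx2-type letters CACTNNAG (12.9% of windows) were found once, in Muc6, 231 bases before the start. These 3 motifs and TATAAA do not overlap one another in the 6 windows.

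Gkn2 stood far above the other members in every library, Ctse and Tff1 came next, and Tff2 and Muc6 were close to absent. In 3′ counting a captured transcript gives 1 UMI whatever its length, so levels were compared between genes without a length correction. Gkn2, the gastrokine that is known to bind Tff1 in gastric mucus, was read at 1595, 2341, 2019 and 2077 CPM (50561, 317612, 70345 and 277666 UMIs). The endothelial-like cells of the same libraries, which should lack the gene, gave 148, 212, 114 and 153 CPM. The AT2-like state described further on gave less, at 11.4, 58.0, 10.2 and 43.1 CPM, so the endothelial-like level is no floor. The part of free RNA in it was not tested. Ctse, encoding the intracellular protease cathepsin E, was read at 70.0, 78.9, 73.0 and 95.8 CPM, against 1.11 to 6.22 CPM in endothelial-like cells. Tff1 was read at 22.7, 59.6, 90.4 and 64.3 CPM, so the lowest and the highest of its 4 levels were both in undepleted portions. Its locus (chr17:31161395-31165277, minus strand) overlaps the gene model Gm15318, and since the use of strand in counting is not given, reads of the 2 cannot be told apart.

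**Figure D1:**
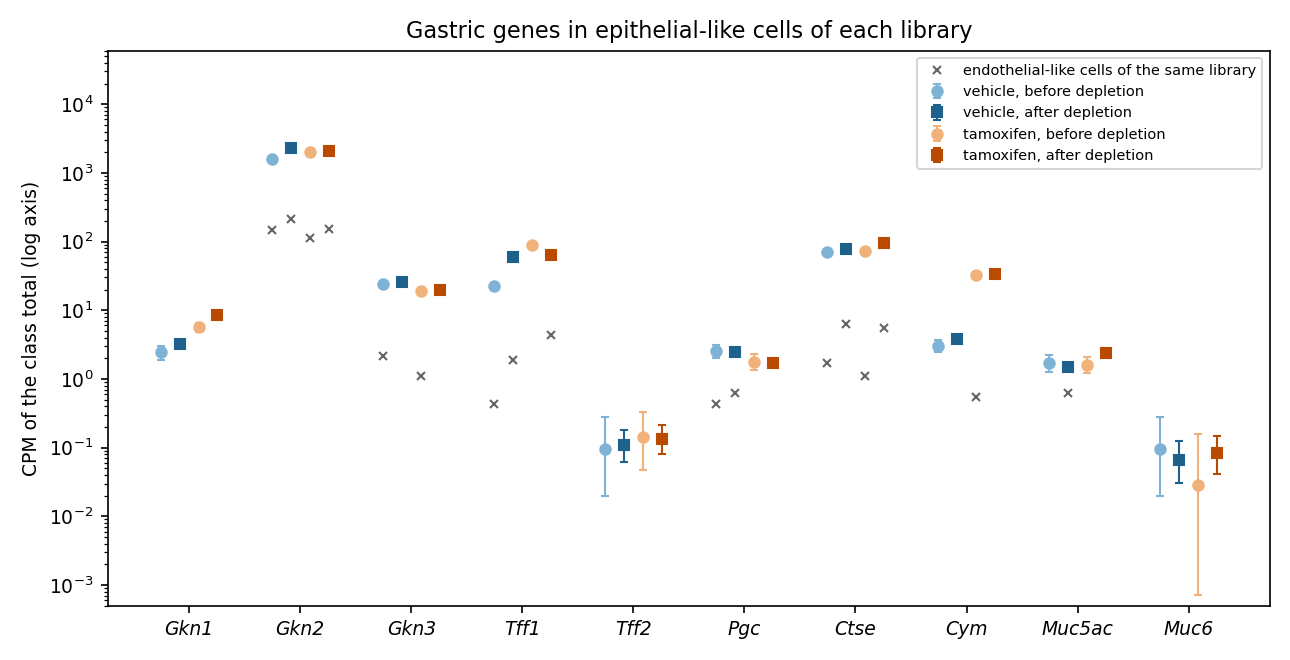
Level of each gastric gene in the epithelial-like cells of each library, in CPM of the class total on a log axis, with exact Poisson 95% intervals; grey crosses show the endothelial-like cells of the same library where the count was above 0. Gkn2 lies between 1595 and 2341 CPM, and only Cym shows both libraries labelled tamoxifen far above both labelled vehicle.

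Gkn3, the third gastrokine of the mouse, was read at 24.4, 25.5, 18.8 and 19.8 CPM. Both vehicle values lay above both values labelled tamoxifen, and the portions of a suspension differed by no more than 0.07 on the log2 scale. Gkn1, the gastrokine most typical of pit cells, was low at 2.43, 3.18, 5.63 and 8.51 CPM (77, 431, 196 and 1138 UMIs). No Gkn1 UMI was found in endothelial-like cells of any library. Cym was read at 3.03, 3.78, 32.6 and 33.4 CPM, with both portions of a suspension alike and the 2 treatments wide apart. Pgc was read at 2.52, 2.47, 1.78 and 1.71 CPM and Muc5ac at 1.70, 1.5, 1.61 and 2.40 CPM. Tff2 had 3, 15, 5 and 18 UMIs and Muc6 3, 9, 1 and 11 UMIs in all epithelial-like cells. For Tff2 and Muc6 no ratio between treatments is given, since the counts before depletion were 5 or fewer.

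In each pair 5 members reached 10 CPM in at least 1 of the 2 libraries, and 1 of them was at least 2-fold apart between treatments in the same direction in both pairs, namely Cym. Over all 9041 genes that reached the same level, the size rule called 1.33%, with 0.376% higher and 0.951% lower in the libraries labelled tamoxifen. The median log2 ratio of the 5 members was 0.34 before and 0.11 after depletion, beside -0.04 and 0.01 for all genes tested. Members moved in different directions, so these medians describe no single member. In the undepleted pair alone, Tff1 and Cym were at least 2-fold apart (1.98% of all genes were), and in the depleted pair Cym alone was (1.75%). Between the 2 portions of a suspension, Tff1 was at least 2-fold apart with vehicle (0.669% of genes) and no member was under the tamoxifen label (0.6%).

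Cym was 3.06 log2 units higher in the library labelled tamoxifen before depletion and 2.85 higher after it (pseudocount of 1 CPM). Without the pseudocount the ratios were 3.43 (interval 3.12 to 3.74) and 3.14 (3.01 to 3.28). The Cym transcripts sat in very few cells. UMIs of Cym were found in 6, 43, 39 and 205 cells, and 1, 2, 4 and 7 cells held 50% of them. The cell with most Cym gave 70, 169, 190 and 556 UMIs. With the 10 cells richest in Cym left out of each library, an alternative added after the data were seen, the ratios were 2.22 and 3.22, but Cym then missed the 10 CPM minimum and was no longer called. Only 6 cells of the undepleted vehicle library had Cym, so this removal left no Cym UMI there. The ratio of 2.22 is therefore set against the pseudocount alone and could not have been negative. After thinning every cell to 5000 UMIs, the share of cells with a Cym UMI was 0.313% (0.0646 to 0.912), 0.297% (0.176 to 0.468), 2.38% (1.55 to 3.50) and 1.74% (1.45 to 2.09), so both intervals labelled tamoxifen lay above both vehicle intervals. Unthinned, the shares were 0.593%, 0.668%, 3.63% and 2.91%.

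**Figure D2:**
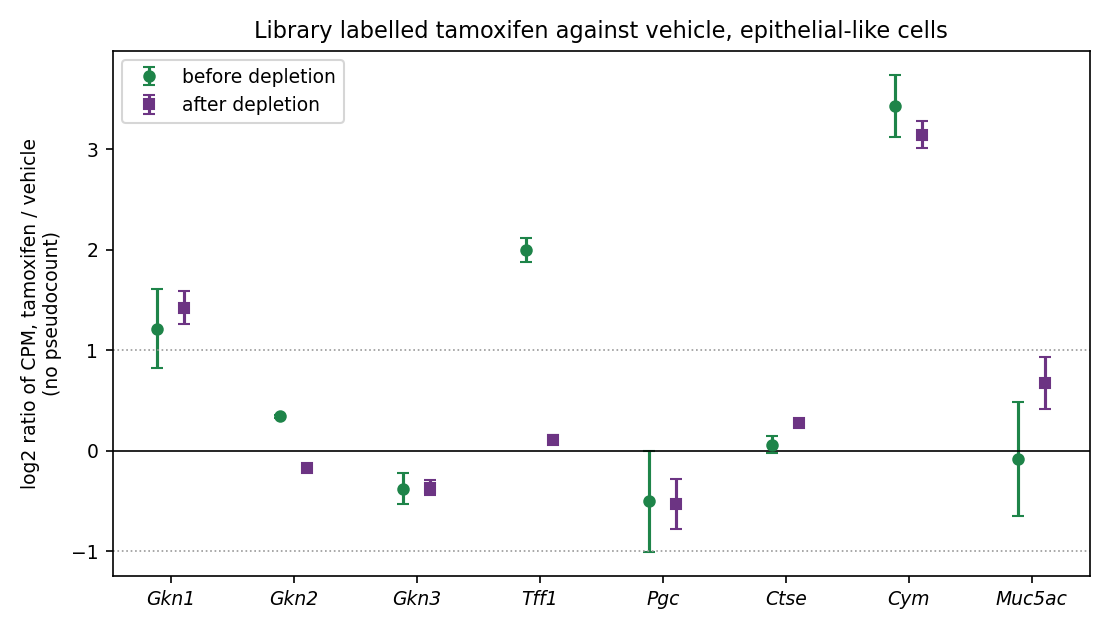
Log2 ratio of CPM without a pseudocount, library labelled tamoxifen over vehicle, before and after depletion, for the 8 members with enough UMIs; bars are exact conditional binomial 95% intervals, and dotted lines mark 2-fold. Cym is at 3.43 and 3.14, Gkn1 is above 1 in both pairs, and Tff1 is at 2.0 before and 0.11 after depletion.

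Among the gastrokines, Gkn1 was higher in the libraries labelled tamoxifen by 0.95 before and 1.19 after depletion (without the pseudocount 1.21, interval 0.82 to 1.61, and 1.42, interval 1.26 to 1.59). It did not reach 10 CPM in any library and was therefore outside the count. Gkn3 was lower by a similar amount in both pairs, -0.36 and -0.35. Gkn2 differed in direction between the pairs, at 0.34 before and -0.17 after depletion. In the vehicle suspension alone, Gkn2 was 0.55 higher after depletion than before it, which exceeds both differences between treatments. The directions of Gkn2 and Gkn3 depended on which epithelial-like states, described further on, were counted. In 1 alternative, the 6 states with 20 or more cells in every library were weighted by their pooled share of cells. This left out states 3 and 4, among others. The ratios then became 0.71 and 0.22 for Gkn2 and 0.44 and -0.07 for Gkn3. Without state 4, which held more of their UMIs than any other state, they became 0.75 and 0.31 for Gkn2 and 0.45 and 0.20 for Gkn3. State 4 was picked by these UMIs and consisted mostly of vehicle cells, so leaving it out raises both ratios by design.

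Tff1 was 1.95 higher in the library labelled tamoxifen before depletion and 0.11 higher after it. The 2 portions of the vehicle suspension differed by 1.36 and those labelled tamoxifen by -0.48. The Tff1 ratio before depletion was larger than both of these differences, and the ratio after depletion was smaller than both. In the 4 libraries, 3, 9, 4 and 17 cells held 50% of the Tff1 UMIs, and the richest single cell gave 23.5%, 7.13%, 20.1% and 7.58% of them. Ctse was spread more widely and differed by 0.06 and 0.28. Pgc was lower in both libraries labelled tamoxifen, at -0.34 and -0.36. Muc5ac differed by -0.05 and 0.44.

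The share of cells with a transcript separated Gkn2 and Ctse from the rest. In cells thinned to 5000 UMIs (26 to 372 shallower cells per library left out), Gkn2 was seen in 35.8%, 58.6%, 51.8% and 61.3% of epithelial-like cells. The same shares in endothelial-like cells were 6.67%, 31.5%, 5.34% and 17.4%, lower in each library but far from 0. Unthinned, Gkn2 was seen in 46.9%, 73.5%, 64.3% and 73.5% of epithelial-like cells, whose median depth was 16911 to 29126 UMIs against 7296 to 13978 in endothelial-like cells. Ctse was seen in 11.9%, 15.1%, 12.7% and 14.8% of thinned cells, Gkn3 in 5.53%, 6.72%, 6.29% and 5.61%, and Tff1 in 1.57%, 2.23%, 2.38% and 2.64%. The Gkn1 share was 0.939%, 0.758%, 1.05% and 1.94%, and only its last interval (1.62 to 2.30) lay above that of its vehicle counterpart (0.556 to 1.01). The Gkn1 shares before depletion rest on 9 vehicle cells and 11 cells labelled tamoxifen. With another random thinning they were 0.418% and 1.14%.

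**Figure D3:**
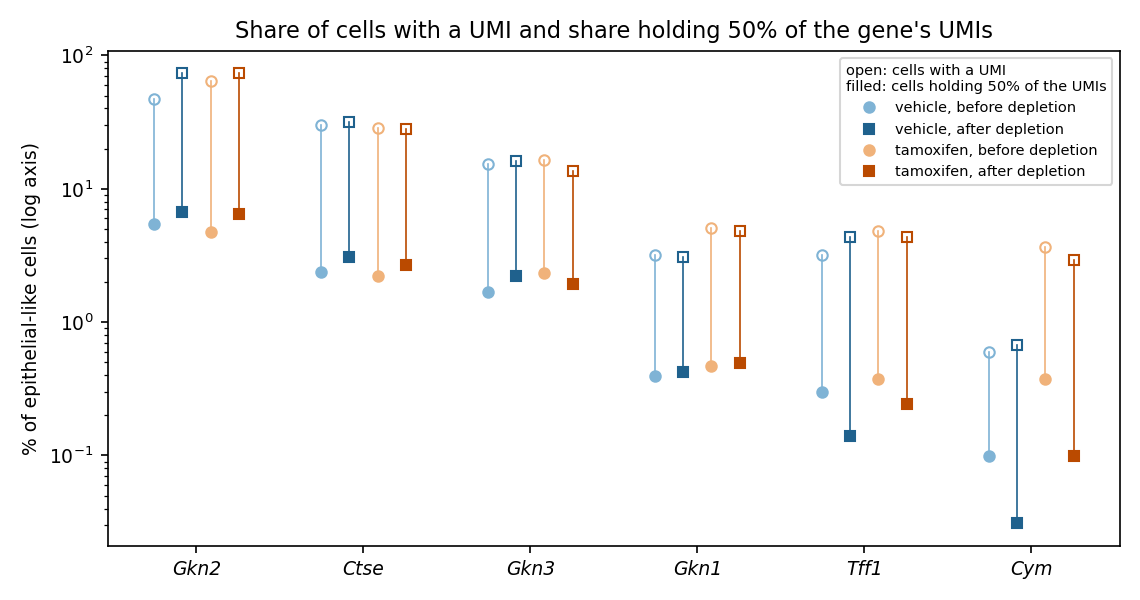
Share of epithelial-like cells with a UMI of the gene (open symbols, unthinned) and share of cells that together hold 50% of its UMIs (filled symbols), per library, on a log axis. For Gkn2, 4.74% to 6.68% of the cells hold 50% of the UMIs, and for Cym 0.0311% to 0.372% do.

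The epithelial-like cells were divided into 13 states by clustering without the members and without the other gastric lists and regulators used here. States are named by number and leading genes, and as X-like only where fixed markers were among the 10 leading genes. State 1 (2843 cells, led by Pyy, Mcpt1 and Aldh1a3) held 82.4% of all Tff1 UMIs, 71.9% of Ctse and 45.5% of Gkn1. In this state Tff1 was read at 118, 210, 554 and 286 CPM and Ctse at 258, 243, 325 and 390 CPM. State 1 had the highest Tff1 and the highest Ctse of all states with at least 50 cells in each of the 4 libraries, and these were the 2 members led by 1 state throughout. The lead depended on how cells were divided, with 0 such members at a Leiden resolution of 1, with Gkn3 as a further one at 0.3, and with Gkn1 in place of Ctse when the gastric genes were clustered on. In state 1, Tff1 was seen in 13.3% to 16.0% of unthinned cells and Ctse in 55.4% to 64.7%. Gkn1 in state 1 was 5.39, 4.4, 16.3 and 23.6 CPM, higher in both libraries labelled tamoxifen. Muc5ac in state 1 reached 6.73 CPM after depletion in the library labelled tamoxifen, where 1 cell gave 42 of 170 UMIs, and was at 1.5 CPM or less in the other libraries.

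Of the cells of state 1, 1789 came from a cluster whose 10 leading genes over all cells were Pyy, Tff1, Mcpt1, Mcpt2, Itga2, Sprr1a, Procr, Serpinb2, Tpsab1 and Mcpt8. Mcpt8 is among the fixed mast cell markers, but all 11 general epithelial markers were seen in the cluster, and it was kept as epithelial-like. Without this cluster of 1894 cells, an alternative added after the data were seen, Cym was still the 1 member called, with ratios of 4.81 and 2.60. The Tff1 ratios were then 0.97 and 0.40 and the Gkn1 ratios 0.54 and 0.82. The Ctse ratios became -0.52 and -0.12, and the Muc5ac ratio after depletion -0.15.

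Gkn2 and Gkn3 had their highest levels outside state 1, and no single state led them in every library. Among states with at least 50 cells, state 4 led for Gkn2 except before depletion under the tamoxifen label. There the cycling-like state 7 led, at 3016 CPM. State 4 led for Gkn3 before depletion with vehicle and after depletion under the tamoxifen label. State 9 led after depletion with vehicle (53.9 CPM), and state 6 before depletion under the tamoxifen label (36.4 CPM). State 4 (1434 cells, led by Ttr, Agr2 and Adgrl3) held 29.1% of Gkn2 and 33.6% of Gkn3 UMIs. Gkn2 in state 4 was 3127, 4344, 2764 and 5163 CPM, and it was seen in 95.9% to 100% of the state's unthinned cells. Gkn3 there was 66.3, 50.1, 19.5 and 46.8 CPM. This state made up 12% and 18.3% of epithelial-like cells in the vehicle libraries and 1.40% and 1.68% in those labelled tamoxifen, where it came to 15 and 118 cells. State 3 (led by Bpifa1, Dcpp1 and Pf4, and club or airway secretory-like by its markers) had the opposite distribution, with 0.594%, 0.497%, 20.9% and 25.2% of the cells. Its Gkn2 was 2709, 2359, 2885 and 2682 CPM, of which the vehicle values came from 6 and 32 cells.

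The AT2-like state 2 (3305 cells, led by Scgb1a1, Lyz1 and Cbr2) was low in Gkn2, Tff1, Ctse and Cym. Gkn2 in it was 11.4, 58.0, 10.2 and 43.1 CPM, below the endothelial-like level of the same library in all 4 cases. Low Gkn2 was not shared by every state with AT2 markers. State 6 had 9 AT2 markers each seen in at least 10% of its cells, though none among its 10 leading genes, and Gkn2 at 870 to 2979 CPM. Tff1 in state 2 was 0 to 0.655 CPM, Ctse 0.313 to 3.13 CPM, and Cym 0 to 0.436 CPM. Tff2, with few UMIs in all, had more of them in state 2 than in any other state (11 UMIs, or 26.8%). The AT1-like state 5 (812 cells) had Gkn2 at 24.6, 186, 122 and 293 CPM, below the endothelial-like level in the vehicle libraries and above it in those labelled tamoxifen.

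**Figure D4:**
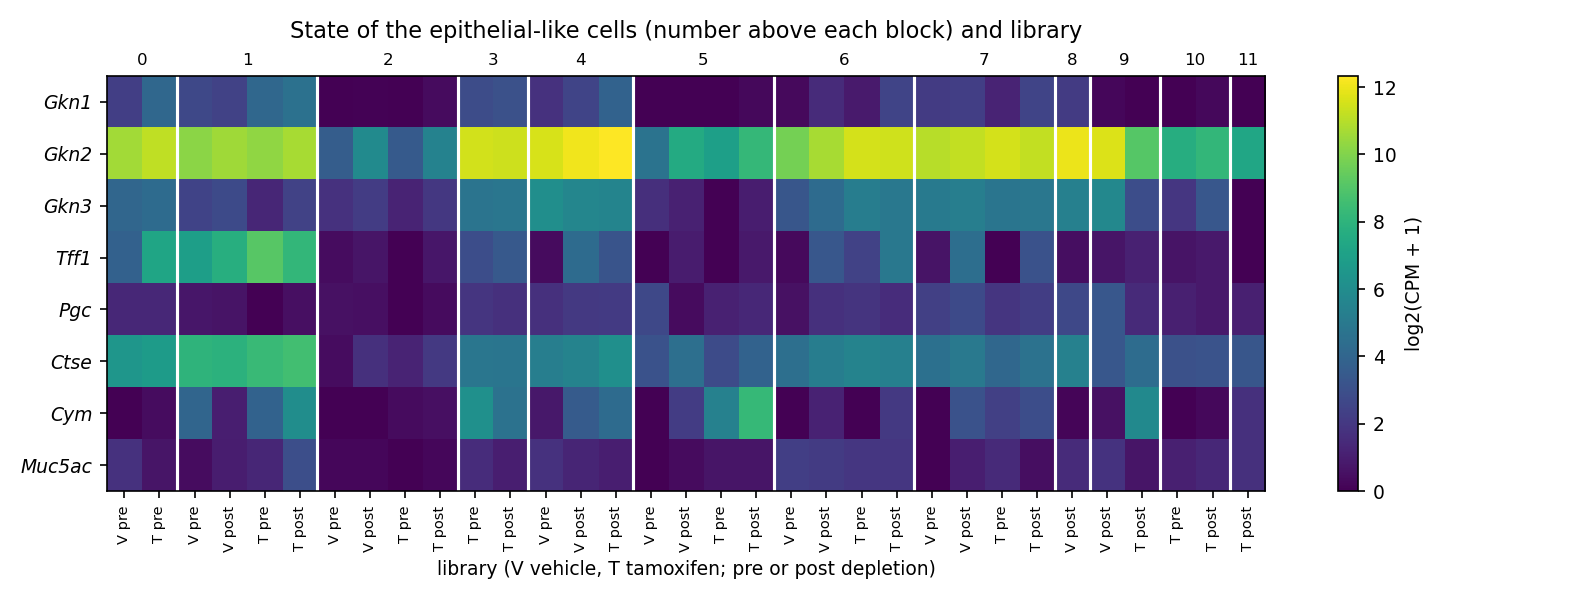
Level of 8 members as log2(CPM + 1) by epithelial-like state (numbers above the blocks) and library, for states with at least 50 cells in the library. Tff1 and Ctse are highest in state 1 of every library, Gkn2 is low in states 2 and 5, and Cym in state 5 is at 42.2 and 305 CPM under the tamoxifen label.

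Cym was also read in the AT1-like state. With vehicle, Cym in state 5 had no UMI in 50 cells before depletion, where 3 UMIs would be 3.21 CPM, and stood at 3.63 CPM after it. Under the tamoxifen label it stood at 42.2 and 305 CPM. The last value came from 1514 UMIs in 8.17% of 416 unthinned cells, with at most 311 UMIs in 1 cell. The log2 difference in state 5 after depletion was 6.05 (without the pseudocount 6.39, interval 5.58 to 7.35). Cym was also higher under the tamoxifen label in state 1 after depletion (1.07 against 65.6 CPM), but not in state 1 before it (15.3 against 13.5 CPM), where 1 vehicle cell held 70 of 88 UMIs. State 3 labelled tamoxifen had 72.9 and 23.8 CPM of Cym. In state 9 after depletion, Cym was at 57.8 CPM in the library labelled tamoxifen, but 94 of its 96 UMIs came from 1 cell. When the 6 states with 20 or more cells in every library were weighted by their pooled share of cells, state 3 was left out. Cym was then 0.83 higher before depletion and 4.26 higher after it, and was no longer called.

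Within single states the treatments differed for Gkn2 in both directions. State 6 (2940 cells, led by Bex2, Bex4 and Ly6c2) had 870 and 1658 CPM of Gkn2 with vehicle, and under the tamoxifen label 2979 and 2748 CPM, a log2 difference of 1.77 before and 0.73 after depletion. Gkn3 in state 6 was 8.91, 19.2, 36.4 and 30.1 CPM and Tff1 0.241, 9.13, 4.45 and 29.2 CPM, both higher under the tamoxifen label in each pair. State 9 (568 cells, led by Ecrg4, Cd177 and Tmeff2) had 2781 and 3276 CPM of Gkn2 with vehicle, and under the tamoxifen label 301 and 542 CPM, the latter from 28 and 209 cells. Its log2 difference after depletion was -2.59 for Gkn2, -2.85 for Gkn3 and -1.86 for Pgc. Pgc, otherwise low, had its highest level in the vehicle cells of state 9, at 23.7 CPM (26 UMIs in 31 cells) and 9.20 CPM. Hnf4a in state 9 was 34.6, 71.2, 358 and 494 CPM, so the cells of state 9 labelled tamoxifen had the highest Hnf4a of any state, with Gkn2 below its level in the vehicle cells of that state.

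**Figure D5:**
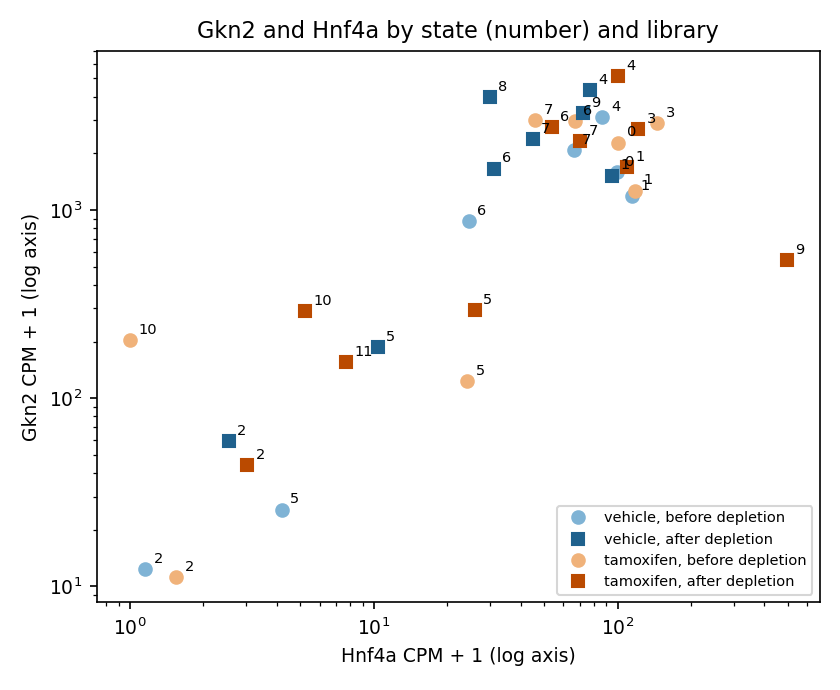
Gkn2 against Hnf4a by epithelial-like state (numbers) and library, both as CPM + 1 on log axes, for states with at least 50 cells in the library. States 2, 5, 10 and 11 lie low in both genes, and state 9 of the library labelled tamoxifen after depletion has the highest Hnf4a (494 CPM) with 542 CPM of Gkn2.

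Across 38 points, each a state in 1 library with at least 500000 UMIs, pairs of members were correlated to differing degrees. Points of 1 library share its depth and free RNA, so the correlations are descriptions of log2 levels. Gkn2 and Gkn3 had a Pearson r of 0.80, Gkn1 and Ctse 0.80, Tff1 and Ctse 0.77, and Gkn1 and Tff1 0.76. Gkn2 and Ctse had 0.68, Gkn1 and Gkn2 0.67, and Gkn3 and Pgc 0.65, so the pairs do not form separate groups. Gkn3 and Tff1 had 0.04, and no pair that included Cym exceeded 0.35. With Hnf4a, r was 0.80 for Gkn2, 0.76 for Ctse, 0.64 for Gkn1, 0.51 for Gkn3, 0.49 for Tff1, 0.48 for Cym, 0.42 for Muc5ac and 0.35 for Pgc. With Nkx2-1 it was -0.62 for Gkn1, -0.59 for Tff1, -0.48 for Ctse, -0.40 for Gkn2, -0.31 for Gkn3, -0.16 for Cym, -0.03 for Muc5ac and 0.12 for Pgc. Among the 9059 genes with a mean of at least 10 CPM over the points, the 3 most like Gkn2 were Sox9, Fam3c and Cmas (0.91 to 0.92), and those most like Tff1 were the mast cell protease genes Mcpt1, Mcpt8 and Mcpt2 (0.87 to 0.88). Gkn3 was most like Lce3f, Id2 and Fabp5 (0.85 to 0.89), and Gkn1 like Pgk1, Srd5a1 and Gzme (0.81 to 0.86). Pgc was most like Mdk, Col14a1 and Lyplal1 (0.80 to 0.81). The genes most like Cym (Elp2, Hbegf and Ccdc112, 0.68 to 0.70) and Muc5ac (Sqor, Creld1 and Eef2k, 0.68 to 0.71) followed them less closely.

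Members were also compared within thinned cells, with all states pooled. State 1 held 82.4% of Tff1 and 71.9% of Ctse UMIs. The shares were not split by state, so a difference between states cannot be told apart from one between cells. After depletion, 57.0% of vehicle cells with a Tff1 UMI also had a Ctse UMI (77 of 135 cells), against 14.2% of cells without Tff1, and 58.2% did under the tamoxifen label (103 of 177), against 13.6%. Gkn1-positive cells nearly always had Gkn2, with 46 of 46 vehicle cells and 127 of 130 cells labelled tamoxifen, against 58.3% and 60.6% of cells without Gkn1. Gkn3-positive cells had Gkn2 in 94.1% and 89.4% of cases, against 56.1% and 59.6% of cells without Gkn3. Gkn3 was seen in 2.22% of Tff1-positive vehicle cells and in 6.83% of the others, and in 5.65% and 5.61% under the tamoxifen label.

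Other genes of the stomach were not called by the same size rule. Of 14 pit cell genes found in the files, 6 reached 10 CPM and none was called in either direction, with Tspan8 (499, 715, 503 and 556 CPM), Cldn18 and Muc1 the highest. Of 18 neck, chief, parietal and endocrine genes, 8 reached 10 CPM and none was called. The acid pump genes Atp4a and Atp4b, the gastric lipase gene Lipf and the pepsinogen gene Pga5 were each at 0.314 CPM or less in every library. Ghrl, encoding the stomach hormone ghrelin, was read at 23.3, 30.8, 42.1 and 31.7 CPM. Of 25 foregut and gastric regulators, 13 reached 10 CPM and none was called. Nkx2-1 was read at 248, 204, 258 and 225 CPM, Sox2 at 0.0631, 0.125, 0.373 and 0.239 CPM, and Pdx1 at 0.0299 CPM or less. Of 14 intestinal genes, 6 reached 10 CPM and 3 were called lower under the tamoxifen label (Lgals4, Vil1 and Agr2). Agr2, a secretory-cell disulphide isomerase that also leads state 4, was read at 81.2, 117, 18.8 and 40.2 CPM, while the third trefoil factor, Tff3, was read at 16.9, 11.3, 23.9 and 13.2 CPM and was not called. The share of called genes over all genes was 1.33%, as above, and lists of this size allow no reading of their counts against it.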

How the data were processed

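The authors deposited raw UMI counts for every gene and cell barcode. Cell Ranger 7.0.1 produced the matrices, per the file headers, while the submitters' processing notes name Cell Ranger 7.2.0 and the build mm10. Per the labels' protocols, cells were cryopreserved, thawed and sorted as live before 3′ library preparation. The annotation release and whether intronic or antisense reads were counted are not given in the sources used here. 1 further allele of the genotype, the genes most like Ctse and 1 T cell-like cluster are not reported here. Coordinates come from GENCODE M21 (GRCm38), to which 32158 of 32289 feature identifiers matched.

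Barcodes with fewer than 200 genes or over 20% mitochondrial UMIs were dropped. Scrublet (scanpy 1.11.5) called 188, 1, 1 and 0 doublets automatically and had not worked, so a score of 0.25 was used instead, which removed 116 to 225 cells per library. Cells were clustered without batch correction (2000 variable genes, 40 principal components, 15 neighbours, Leiden resolution 1 with igraph 0.11.9, and 0.5 within epithelial-like cells). A name needed 3 fixed markers each seen in 10% of the cells. This rule left most tumour clusters unnamed. After the data had been seen, unnamed clusters were therefore also counted as epithelial-like where epithelial markers outnumbered immune or stromal ones, the test written for cycling clusters, fewer than 5 of the latter were seen, and the cluster was not shallow. Unnamed clusters outside the class included a shallow one of 259 cells (1.02%, 1.46%, 0.360% and 0.870% of kept cells). Clusters mostly of 1 library were kept. One state of 138 cells, nearly all from undepleted portions, was led by myeloid genes (Ccl6, Chil3 and Il1b) and was kept, with ratios without it among the alternatives.

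CPM are sums over epithelial-like cells divided by the UMI total of that class. Genes with at least 10 CPM in 1 or both libraries of a pair, for both pairs, were called apart when 2-fold or more different the same way in each, a rule of size. Log2 ratios carry a pseudocount of 1 CPM unless stated. Shares over the whole class were taken after thinning to 5000 UMIs, and shares within states and in T cell-like cells were not thinned. Genes most like a member were ranked by Pearson's r of log2(CPM + 1) for members with at least 500 UMIs. All members were named, and genes of the other lists only when called or among the 3 highest, with the regulators and markers named beside a result; Ghrl, Sox2, Pdx1, Tff3 and the acid pump, lipase and pepsinogen genes were named after their values were seen. The members and lists were chosen with earlier results of these data known.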

Additional observations from a re-analysis of the deposited data

Results flagged for a closer look

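Gkn2 moved in opposite directions in the 2 pairs of libraries. It was 0.34 log2 units higher under the tamoxifen label before depletion and -0.17 after it, and both counting intervals excluded 0 (0.32 to 0.36 and -0.18 to -0.17). Each group is 1 library, so this difference was not tested. The Gkn2 richest cell before depletion under the tamoxifen label gave 5424 UMIs, or 7.71% of that library's Gkn2. With the 10 cells richest in Gkn2 left out of each library the ratios were 0.21 and -0.17. With the 6 states of 20 or more cells in every library weighted by their pooled share of cells, they were 0.71 and 0.22. That weighting left out states 3 and 4, among others. Without state 4, which held more Gkn2 UMIs than any other state, they were 0.75 and 0.31. State 4 was picked by these UMIs and consisted mostly of vehicle cells. Leaving it out raises both ratios by design, so the shared sign of the last 2 values is no support for 1 direction.

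Tff1 was read in cells outside the epithelial comparison. In T cell-like cells of the undepleted libraries it was at 112 CPM with vehicle (944 UMIs in 128 of 1168 cells) and 73.2 CPM under the tamoxifen label (367 UMIs in 44 of 715 cells), whereas the endothelial-like cells of those libraries gave 0.431 and 0 CPM and B cell-like cells 0.402 and 0.905 CPM. In these T cell-like cells 19 and 6 cells held 50% of the Tff1 UMIs. The T cell-like cells with Tff1 had Cd3e in 70.3% and 86.4% of cases, unthinned, and Epcam in 3.91% and 15.9%, against 72.1% and 76.5%, and 6.83% and 8.35%, in those without it. Their median depth was 9251.5 and 9735 UMIs, against 5675.5 and 5900. The level of Tff1 differed between clusters of T cell-like cells. A cluster led by Tnfrsf4, Ctla4 and Ikzf2 had 197 and 257 CPM of Tff1, and one led by Cd8a, Nkg7 and Cd8b1 132 and 58.3 CPM. A cluster led by Cd163l1, Trdc and Il17a had 212 CPM of Tff1 with vehicle (231 UMIs in 19 of 104 cells) and none in 58 cells under the tamoxifen label, where 3 UMIs would be 5.46 CPM. On chromosome 17, Tmprss3 lies 13988 bases from Tff1 and the T cell gene Ubash3a lies beyond it on the other strand. Ubash3a was seen in 81.3% and 59.1% of the T cell-like cells with Tff1 and in 40.1% and 41.7% of those without it, unthinned shares of cells that also differ in depth as given. Its level was 115 CPM with Tff1 and 105 CPM without it under vehicle, and 72.0 and 106 CPM under the tamoxifen label. Tmprss3 was at 2.97 and 1.6 CPM in T cell-like cells. The part of reads from neighbouring transcription in this signal was not tested.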

How the results depend on the processing

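No paired analysis was possible because each group holds 1 library and the labels carry no replicate numbers. With 15 alternatives for each ratio, 231 of 300 member ratios moved by less than their counting interval, 59 moved further, and 10 changed sign although their own interval had excluded 0. The 231 include every alternative for Tff2 and Muc6, whose intervals were too wide to be left (-7.44 to 1.92 for Muc6 before depletion). All ratios that moved further or changed sign were of the other members. The weighting of states by their pooled share of cells used only the 6 states with 20 or more cells in every library. With it, the Gkn2 ratio after depletion became 0.22 and the Gkn3 ratio before depletion 0.44. Another alternative left out the state holding most of a member's UMIs, a state picked by those same UMIs. Gkn2 after depletion then became 0.31, and Gkn3 became 0.45 before and 0.20 after depletion. The ratios after depletion became -0.30 for Tff1, -0.17 for Ctse and -0.15 for Muc5ac. Without the cluster led by Pyy, Tff1 and mast cell proteases, Ctse after depletion became -0.12 and Muc5ac -0.15. The number of members called was 1 (Cym) under the other alternatives, and 0 with weighted states and 0 without the 10 richest cells. The genes called higher numbered 34, and 106 at 1.5-fold, 3 at 4-fold and 19 with a pseudocount of 5 CPM. The genes called lower numbered 86, and 161 without a CPM minimum, 193 at 1.5-fold, 8 at 4-fold and 54 with the larger pseudocount. The members led by 1 state in every library numbered 2 (Tff1 and Ctse), and 0 at a Leiden resolution of 1, 3 at 0.3 (with Gkn3) and 2 when clustered with the gastric genes (Gkn1 and Tff1). Apart from the thresholds themselves, the cause of these changes was not tested. Low counts limit what can be said of Tff2 and Muc6. Their counts before depletion were at or near 3 UMIs, and after it they stood at 0.135 CPM or less. The alternatives without a cluster, without a state of myeloid genes, with the shallow cluster and without the richest cells were chosen after seeing the data.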

Other observations

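Ctse was also read in several classes outside the epithelium. In the undepleted libraries it was at 67.5 and 75.1 CPM in B cell-like cells, 62.0 and 57.7 CPM in T cell-like cells, 62.8 and 48.4 CPM in plasma cell-like cells, and 42.2 and 60.8 CPM in dendritic cell-like cells (vehicle first). These Ctse levels are close to those of the epithelial-like cells of the same libraries, 70.0 and 73.0 CPM. Alveolar macrophage-like cells gave 0.442 and 1.44 CPM and endothelial-like cells 1.72 and 1.11 CPM. Mast or basophil-like cells gave 228 and 127 CPM of Ctse, from only 14 and 6 cells. Cym was at 15.4 and 19.5 CPM in NK cell-like cells, from 9 and 7 UMIs. Gkn1 was absent or near 0 in every non-epithelial class of the undepleted libraries, with at most 4 UMIs in a class.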
